A study of Homo sapiens with 9 samples.

Results

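The 10 genes for the enzymes that make serine and pass its carbon to folate were followed in MM1S, an established line of human multiple myeloma cells, after knockdown of PHF19 and after its return. They (PHGDH, PSAT1, PSPH, SHMT1, SHMT2, MTHFD1, MTHFD2, MTHFD1L, ALDH1L2 and GLDC) were taken by symbol from a count table of 58387 genes. All 10 were found and all 10 were among the 16600 genes tested. The set counts as chosen on its CPM values in these same libraries, since it was proposed with them in view, so its levels and fold changes are given as a description, with no p-value. The PHF19 protein is an accessory part of PRC2, the Polycomb complex that methylates lysine 27 of histone H3.

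Lentivirus carried each construct into the cells, which were collected from regular medium, per the labels. The control carried an empty vector (shEV, n = 3). The knockdown stably expressed an shRNA against PHF19 (PHF19_KD, n = 3). The rescue was the knockdown with shRNA-resistant PHF19 added (KD_Rescued, n = 2). All of this is a single cell line, and nothing in the labels tells whether replicates came from different cultures, so a p-value measures only the spread between libraries, which may be technical. The title of 1 further library calls it a knockdown while its shRNA label names shRNA-resistant PHF19, and this disputed library is shown apart and entered no test.

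Cells make serine from a glycolytic intermediate in 3 steps, catalysed in order by PHGDH, PSAT1 and PSPH. The serine hydroxymethyltransferases then move a carbon from serine to tetrahydrofolate and leave glycine, SHMT1 mainly in the cytosol and SHMT2 mainly in mitochondria. The loaded folate is interconverted by MTHFD1 in the cytosol and by MTHFD2 and MTHFD1L in mitochondria, which export the carbon as formate for purine and thymidylate synthesis. ALDH1L2 oxidises mitochondrial formyl-folate to carbon dioxide with production of NADPH, and GLDC is the decarboxylase of the mitochondrial glycine cleavage system. In many cell types the transcription factor ATF4, which is translated when amino acids run short, switches on several of these genes.

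The knockdown was visible in PHF19 itself. Its normalised level, in CPM (counts scaled to a common library total), was 123, 124 and 103 in the shEV libraries, 26.0, 27.5 and 27.3 in PHF19_KD and 220 and 218 in KD_Rescued. The disputed library had 63.6 CPM, between the knockdown and the control. The shEV libraries totalled 16974728 to 22739741 counts, the PHF19_KD libraries 10609798 to 12024913, the KD_Rescued libraries 23644123 to 23751353, and the disputed library 10164112. The share of counts from mitochondrially encoded genes was 3.16% ± 0.279 in shEV, 9.60% ± 0.518 in PHF19_KD and 5.08% ± 0.132 in KD_Rescued (SD over libraries). With those genes left out of the fit, all 10 enzyme genes kept their calls in all 3 comparisons. Both KD_Rescued libraries ran in lane 2 and all others in lane 6, so the effects of rescue and lane cannot be told apart. All 8 plasma cell markers were at or above 1 CPM on average in every group, and their sum ran from 4101 to 4458 CPM over the 8 libraries. Within that sum, 3 were called higher in PHF19_KD than in shEV, among them CD38 (log2 1.16) and SDC1 (0.60), and 3 lower, among them TNFRSF17 (-1.07) and MZB1 (-0.79). Summed markers of T and NK cells stayed at or below 2.38 CPM, of myeloid cells at or below 3.56, of epithelium at or below 1.32 and of stroma at or below 10.6, the latter highest in PHF19_KD. There COL1A2, COL3A1 and LUM were at 0, while COL1A1 (0.578 CPM in shEV, 2.54 in PHF19_KD) and PDGFRB (2.02 and 7.65) were called higher, as were ITGAM of the myeloid list (0.614 and 2.72) and KRT18 of the epithelial list (0.261 and 0.876). Of the T and NK list, CD3E (1.08 and 0.435) was called lower and GNLY (0.575 and 0.606) was not called. The part of these in the change of the enzyme genes was not tested. In bulk RNA, fewer cells of a kind and less RNA per cell cannot be told apart.

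All 10 genes were lower in the knockdown, by differing amounts. Promoter windows are shown so that a reader can see the letters near the starts, and a link to the changes was not tested. RefSeq (GRCh38.p14) gave windows from 250 bases before to 50 bases after the start for 7 of the 10 genes. PSPH, SHMT2 and ALDH1L2 were not matched. The motifs searched, on both strands, were CCAAT, the box bound by NF-Y, CACGTG, the E-box bound by MYC and MAX among others, and TGATGNAA, the amino acid response element bound by ATF4 with a partner. Capitals mark the motif, and each line runs 5′ to 3′ on the gene's own strand. The lines are a choice of the matches. The CCAAT matches of MTHFD1 and MTHFD1L, a further one of SHMT1 and the E-box of MTHFD1L are not printed.
PHGDH, chr1:119711851-119711880, plus strand: gagtatttccgtCCAATcaaaaggagactg
MTHFD2, chr2:74198419-74198448, plus strand: gctcttctggctCCAATcaaaagcagggct
MTHFD2, chr2:74198529-74198558, plus strand: atgcggcagggaCCAATgggtggcggaggg
PSAT1, chr9:78297000-78297029, plus strand: tcagaagcgcgaCCAATggggatgtgagct
PSAT1, chr9:78297030-78297059, plus strand: ccttcgcgcgaaCCAATtagcgcagggcct
PSAT1, chr9:78297061-78297090, plus strand: cgacagcacgggCCAATggggcgccgactc
SHMT1, chr17:18363609-18363638, minus strand: gctgcgccgcagCCAATagcgcgggtgcgt
GLDC, chr9:6645766-6645795, minus strand: ctgtctactttcATTGGccaagggcttcct
MTHFD1, chr14:64388326-64388355, plus strand: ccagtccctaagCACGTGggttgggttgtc
MTHFD1L, chr6:150866346-150866375, plus strand: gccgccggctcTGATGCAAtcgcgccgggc

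The CCAAT pentamer occurred in 7 of 7 windowed genes, against 43.4% of the 10042 tested genes with a window and 34.6% of all 35116 windows. PSAT1 held 3 copies, 113, 83 and 52 bases before its start. In GLDC the pentamer lay in the reverse orientation, 54 bases before the start. PHGDH and MTHFD2 shared a longer run that includes the pentamer, TCCAATCAAAAG, which begins 72 and 185 bases before their starts. This run was looked for only after the windows had been read, and it occurred in 6 of all windows and in 0.0398% of the tested genes with a window. The E-box was present in MTHFD1 and MTHFD1L, against 12.8% of the tested genes with a window. TGATGNAA was present in MTHFD1L alone of the 7, against 2.70%, as a single site in the windows of 3 of its 4 starts. These matches describe letters only.

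The serine synthesis genes held the largest fall in the set. PHGDH, the first enzyme of the route, stood at 74.3, 74.2 and 62.7 CPM in the shEV libraries, 4.09, 3.31 and 3.90 in PHF19_KD and 44.5 and 44.2 in KD_Rescued. Every knockdown library lay below every other library, and the rescue lay between the knockdown and the control without touching either. The group means were 70.4 ± 6.67 (SD, n = 3), 3.77 ± 0.409 (n = 3) and 44.4 ± 0.218 (n = 2). The fitted log2 fold change was -4.23 ± 0.11 (SE) in the knockdown against shEV, an 18.7-fold lower mean, and 3.56 ± 0.12 in the rescue against the knockdown. The rescue remained at 63.0% of the control mean, with a log2 difference of -0.67 ± 0.08. Of all tested genes, 0.361% had a lower log2 fold change in the knockdown. The lowest PHGDH value among the controls came from shEV replicate 3. That library lay farthest from its group over the 6782 to 6871 genes with whole counts that were compared.

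PSAT1, the aminotransferase that acts second, gave 87.7, 87.3 and 88.1 CPM in shEV, 11.3, 10.0 and 9.11 in PHF19_KD and 73.5 and 72.7 in KD_Rescued. Its control libraries were nearly level, and no library of any group fell inside another group's range. The log2 fold change was -3.11 ± 0.07 in the knockdown and 2.85 ± 0.07 from knockdown to rescue, and the rescue reached 83.4% of the control mean. PSPH, the phosphatase that releases serine, gave 24.8, 27.3 and 26.0 CPM in shEV, 11.2, 12.5 and 12.1 in PHF19_KD and 22.9 and 22.2 in KD_Rescued. Its fall was much smaller than that of its neighbours in the route, at -1.12 ± 0.08, and its return was 0.92 ± 0.08. The groups did not overlap for PSPH either. Its counts were not whole in any of the 9 libraries, and the pseudogene PSPHP1 held up to 28.6% of the count of PSPH, so its level is uncertain. Numbered pseudogenes of the other enzyme genes held at most 2.74% of their counts, the highest being GLDCP1. The mean fell 18.7-fold for PHGDH, 8.64-fold for PSAT1 and 2.19-fold for PSPH.

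**Figure D1:**
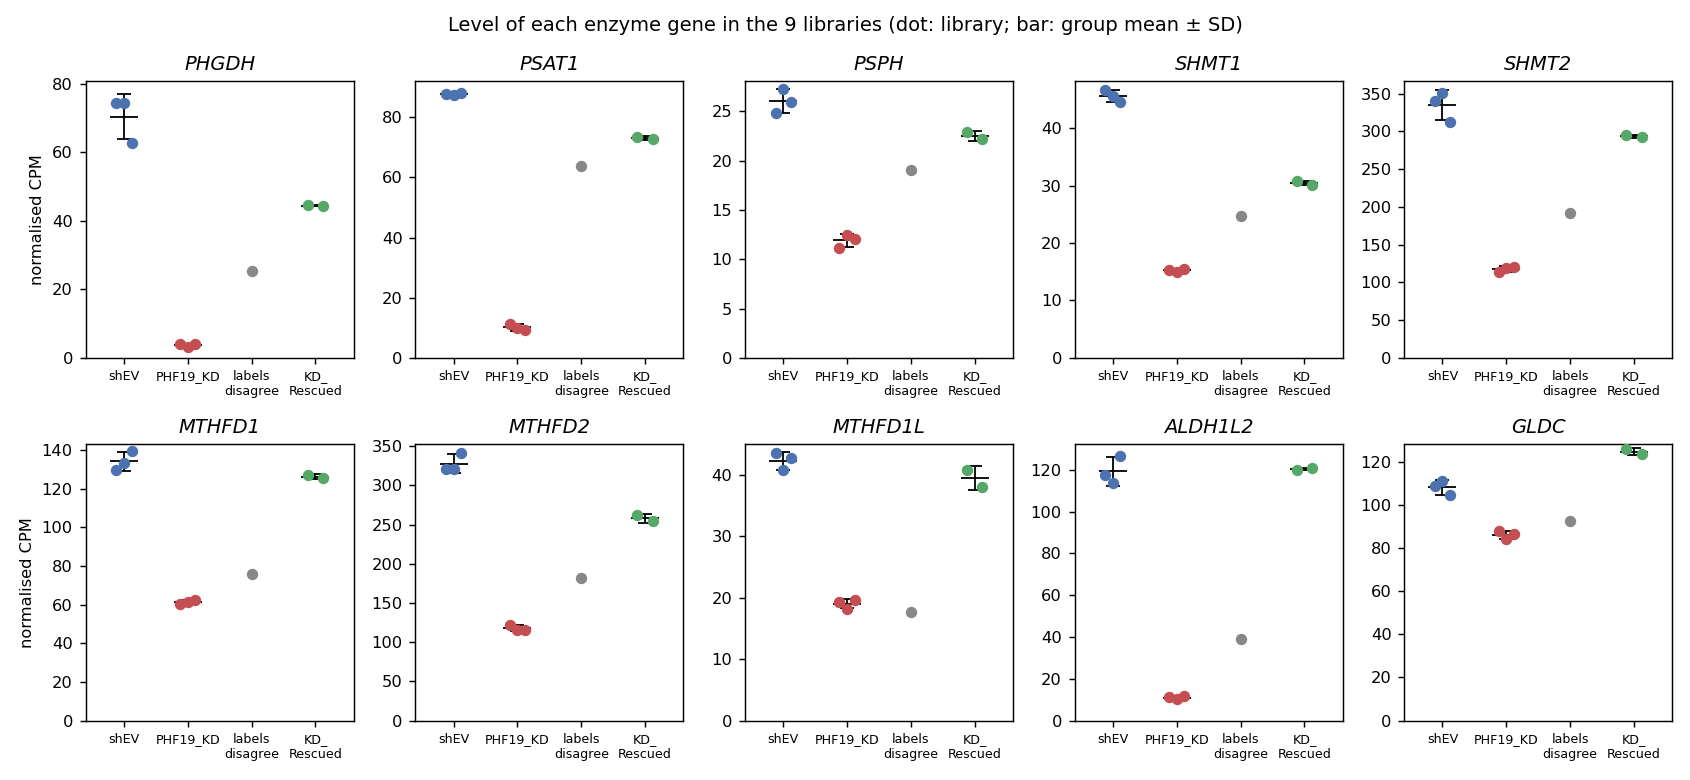
Normalised CPM (vertical axis, linear from 0, with its own scale in each panel) of the 10 enzyme genes in 9 libraries. Dots are libraries and bars are group means ± SD. In each panel the 3 PHF19_KD libraries sit below all shEV and KD_Rescued libraries, and the disputed library (labels disagree) is drawn apart in grey.

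Both serine hydroxymethyltransferases fell by nearly the same proportion from very different levels. SHMT2, the mitochondrial enzyme, stood at 340, 352 and 313 CPM in shEV, 114, 119 and 120.2 in PHF19_KD and 295 and 292 in KD_Rescued. SHMT1, the cytosolic enzyme, stood at 46.6, 45.6 and 44.6 CPM in shEV, 15.3, 14.9 and 15.5 in PHF19_KD and 30.7 and 30.2 in KD_Rescued. Neither gene had a library inside another group's range. In the knockdown the log2 fold change was -1.51 ± 0.05 for SHMT2 and -1.58 ± 0.06 for SHMT1, so that 35.2% and 33.4% of the control mean was left. In the rescue they separated, SHMT2 standing at 87.7% of the control mean and SHMT1 at 66.8%. An exon of SMCR8 overlaps SHMT1 on the opposite strand in GENCODE 29, and SMCR8 had 100.1 CPM in shEV, 90.2 in PHF19_KD and 73.6 in KD_Rescued. The strand setting of the counting is not given in the sources used here, so reads of such pairs cannot be told apart. Exons of SHMT2, MTHFD1, MTHFD2 and ALDH1L2 are likewise overlapped on the other strand by NDUFA4L2, ZBTB25, SLC4A5 and C12orf45. Of these, ZBTB25 was highest in the knockdown, at 19.96 CPM, and in shEV the highest was C12orf45, at 11.0 CPM.

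The genes that interconvert folate-bound carbon fell between 2.19-fold and 2.79-fold. MTHFD2, the mitochondrial dehydrogenase and cyclohydrolase, gave 321, 321 and 342 CPM in shEV, 122, 115 and 116 in PHF19_KD and 262 and 254 in KD_Rescued. Its groups were separate throughout, with a log2 fold change of -1.48 ± 0.05 in the knockdown and 1.13 ± 0.05 in the rescue against the knockdown. MTHFD1, the trifunctional cytosolic enzyme, gave 129.7, 133 and 139 CPM in shEV, 60.1, 61.4 and 62.5 in PHF19_KD and 127 and 125 in KD_Rescued. The rescue libraries lay just under the controls, and the difference of -0.09 ± 0.05 on the log2 scale did not pass the test. MTHFD1L, the mitochondrial formate-releasing synthetase, gave 43.5, 40.7 and 42.6 CPM in shEV, 19.3, 18.2 and 19.6 in PHF19_KD and 40.8 and 38.0 in KD_Rescued. Here the rescue and control ranges overlapped, and the log2 difference was -0.10 ± 0.06. The falls of MTHFD1 and MTHFD1L in the knockdown were -1.13 ± 0.05 and -1.15 ± 0.07. These genes had the closest profiles of any pair in the set, with a root mean square difference of 0.0526 in centred log2 CPM over the 8 libraries.

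ALDH1L2 was among the genes of the set that fell most, and GLDC fell least. ALDH1L2 gave 118, 114 and 127 CPM in shEV, 11.2, 10.1 and 11.7 in PHF19_KD and 120.0 and 121 in KD_Rescued. The rescue libraries lay within the control range, and the difference from control was 0.01 ± 0.06 on the log2 scale. From control to knockdown ALDH1L2 fell by 3.44 ± 0.07, and from knockdown to rescue it rose by 3.45 ± 0.07. Its cytosolic paralog ALDH1L1, named after its values were seen, was barely detected, with 1, 0 and 0 counts in shEV, 16, 24 and 17 in PHF19_KD, 5 and 1 in KD_Rescued and 6 in the disputed library. GLDC gave 109, 111 and 105 CPM in shEV, 88.0, 84.1 and 86.6 in PHF19_KD and 126 and 124 in KD_Rescued. Its fall of 0.33 ± 0.05 was the smallest of the 10, and it was the single enzyme gene whose rescue libraries lay above every control, by 0.20 ± 0.05. In the knockdown 79.7% of the control level of GLDC was left, against 5.35% for PHGDH.

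Counted over the set, 10 of 10 genes were called lower in PHF19_KD than in shEV at an adjusted p below 0.05 (edgeR quasi-likelihood test, adjusted over all 16600 genes), against a background of 34.2% of tested genes called lower, 34.9% called higher and 69.1% called in either direction. Groups did not overlap for 10 of 10, against 35.3% of tested genes in that direction, and 9 of 10 were called at least 2-fold lower, against 10.1%. The median log2 fold change was -1.49 for the set and 0.03 for all tested genes. Against the knockdown the rescue was called higher for 10 of 10 genes (background 33.9%, with 29.5% lower and 63.4% in either direction), at least 2-fold for 8 (10.5%), with no overlap for 10 (40.9%), and with a median of 1.09 against 0.03. These comparisons share the PHF19_KD libraries, and the set was proposed from them, so nothing is read from either count. With upper-quartile scaling the median of all genes moved from 0.03 to 0.19 in the first comparison and from 0.03 to -0.12 in the second. The share of calls that were higher went from 50.5% to 60.6% and from 53.4% to 42.1%, while the 10 genes kept their directions.

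**Figure D2:**
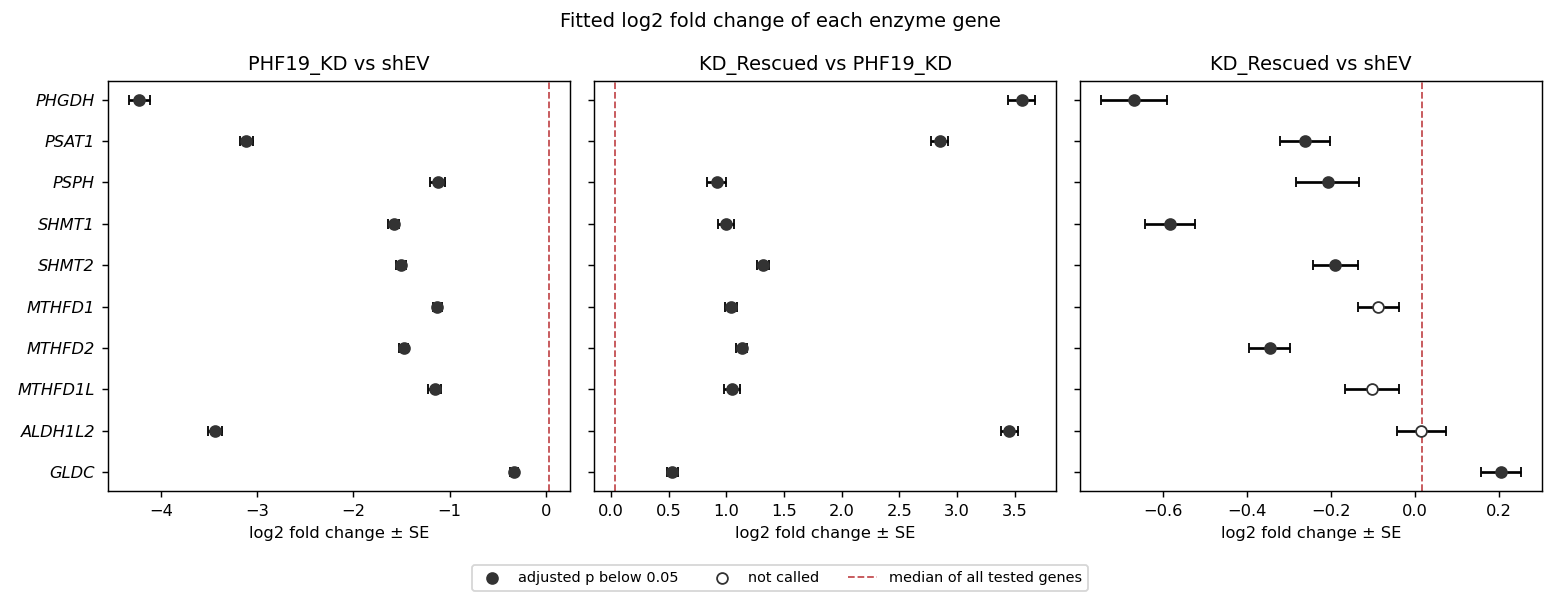
Fitted log2 fold change ± SE (horizontal axis, scaled separately in each panel) of the 10 enzyme genes in 3 comparisons. Filled points passed the threshold, open points did not, and the dashed line is the median of all tested genes. The knockdown values run from -4.23 for PHGDH to -0.33 for GLDC, and the rescue stays below control for 6 called genes.

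The rescue is described against the control in the same way, with no conclusion drawn from the calls. Against shEV, 6 genes were called lower in KD_Rescued (PHGDH, PSAT1, PSPH, SHMT1, SHMT2 and MTHFD2), against a background of 19.1%, or 39.8% in either direction. GLDC was called higher, against 20.7%, and MTHFD1, MTHFD1L and ALDH1L2 were not called. The ranges did not overlap for 7 genes on the lower side, against 29.2% of tested genes, and for 1 on the higher side, against 32.5%. By share of the control mean the rescue ran from 63.0% for PHGDH and 66.8% for SHMT1 to 101% for ALDH1L2 and 115% for GLDC. The median log2 difference of the set was -0.20, against 0.02 over all genes. The PSPH call rested on a difference of -0.21 ± 0.07 and was lost under 10 of 19 alternatives. These included leaving out shEV replicate 2 (-0.18), PHF19_KD replicate 2 (-0.21) or 3 (-0.21), or KD_Rescued replicate 1 (-0.23) or 2 (-0.19). The GLDC and SHMT2 calls were each lost under 4, GLDC without KD_Rescued replicate 1 (0.19) and SHMT2 without KD_Rescued replicate 1 (-0.20) or 2 (-0.19). With DESeq2 42.3% of the calls in this comparison were higher, against 52.1% with edgeR.

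Within a library, the ratio of a mitochondrial to a cytosolic isozyme does not depend on scaling. For SHMT2 over SHMT1 the log2 ratio of CPM was 2.87 ± 0.07 in shEV, 2.95 ± 0.05 in PHF19_KD and 3.27 ± 0.01 in KD_Rescued (SD over libraries). The rescue libraries lay above all others, while control and knockdown overlapped. For MTHFD2 over MTHFD1 it was 1.31, 1.27 and 1.29 in shEV, 1.02, 0.91 and 0.89 in PHF19_KD and 1.04 and 1.02 in KD_Rescued. This ratio was lower in every knockdown and rescue library than in any control. For MTHFD1L over MTHFD1 it was -1.67 ± 0.08, -1.69 ± 0.06 and -1.68 ± 0.06, so the group means differed by less than the spread between libraries.

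**Figure D3:**
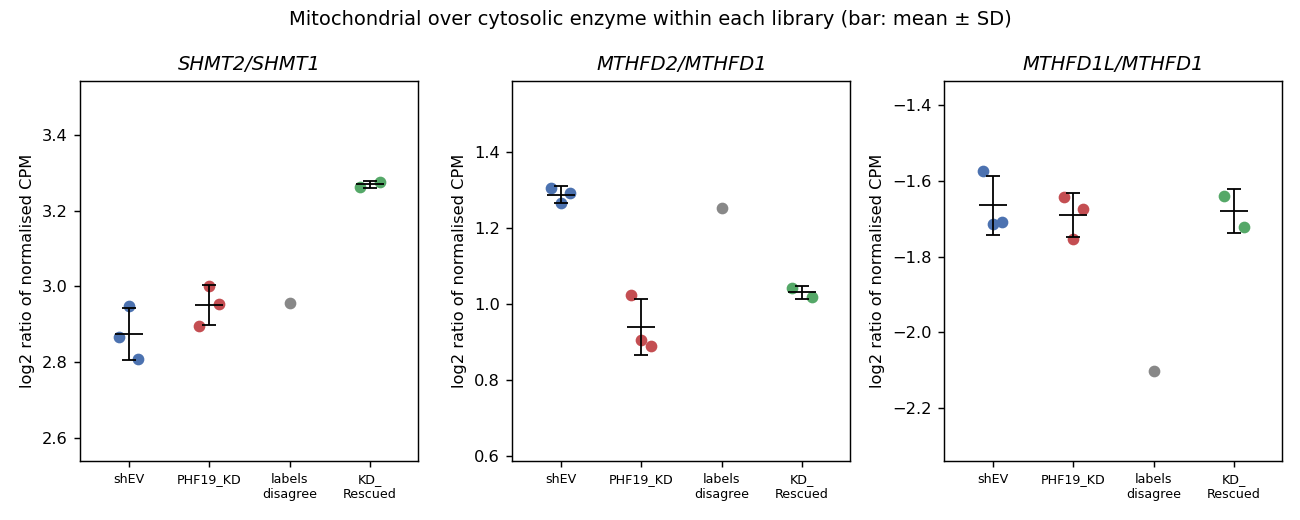
Log2 ratio of normalised CPM of a mitochondrial over a cytosolic enzyme gene (vertical axis, not starting at 0) in each library, with group mean ± SD. The MTHFD2/MTHFD1 ratio sits near 1.29 in shEV and at or below 1.04 in PHF19_KD and KD_Rescued, and the SHMT2/SHMT1 ratio is highest in KD_Rescued.

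Levels of different genes are compared per length, as CPM per kb of the longest protein-coding transcript in GENCODE 29. On that scale SHMT2 led in shEV with 132 ± 7.87, followed by MTHFD2 with 73.6 ± 2.69 and PSAT1 with 40.1 ± 0.193. GLDC (27.8 ± 0.879) and PHGDH (27.2 ± 2.58) came next and differed by less than their spread. MTHFD1 had 19.7 ± 0.713, SHMT1 18.5 ± 0.411 and ALDH1L2 15.8 ± 0.895. PSPH (11.9 ± 0.559) and MTHFD1L (11.7 ± 0.402) were lowest on this scale and also within their spread of each other. In PHF19_KD the order changed. SHMT2 (46.4), MTHFD2 (26.4) and GLDC (22.1) led, while PSAT1 (4.64), PHGDH (1.46) and ALDH1L2 (1.46) came last. With the median transcript length in place of the longest, SHMT2 was still first in each group, but MTHFD1 moved from place 6 to place 2 in shEV, MTHFD1L from 10 to 6 and ALDH1L2 from 8 to 10. GLDC (place 4) and PSPH (place 9) kept their places in shEV, and PSPH (place 6) and PSAT1 (place 8) kept theirs in PHF19_KD. Places other than these and that of SHMT2 hold only for the transcript length assumed.

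The disputed library lay below every shEV and every KD_Rescued library for all 10 genes. It lay above every PHF19_KD library for 9 of them and below all of them for MTHFD1L, at 17.7 CPM. Its share of the control mean ran from 32.6% for ALDH1L2 and 35.8% for PHGDH (25.2 CPM) to 72.7% for PSAT1 (63.8 CPM), 73.1% for PSPH and 85.8% for GLDC. Among the serine synthesis genes, PHGDH was farthest from control there, and PSAT1 and PSPH lay close together. Its MTHFD2 over MTHFD1 ratio, 1.25, was close to the controls, and its MTHFD1L over MTHFD1 ratio, -2.10, was below every other library. Counted as a knockdown, it moved the log2 fold change in the knockdown to -2.98 for PHGDH, -1.92 for PSAT1 and -2.74 for ALDH1L2. PSAT1 then no longer passed in the rescue against the knockdown, at 1.61. Against shEV, the rescue was then called lower for 1 enzyme gene and higher for 0, with 4047 of 16481 tested genes called. PHGDH (-0.71) and PSAT1 (-0.31) were among the calls lost.

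The neighbouring pathways were described with gene lists that hold none of the 10 genes. Their counts in the knockdown stand against the shares over all tested genes, 34.2% called lower and 34.9% called higher. Of 16 tested genes that handle folate (of 21 listed), 10 fell in the knockdown, 4 rose and 2 did not pass, with a median of -0.37. TYMS, which makes thymidylate with a folate-bound carbon, went from 308 ± 8.48 CPM in shEV to 19.1 ± 0.402 in PHF19_KD and 293 ± 6.62 in KD_Rescued (log2 -4.01 ± 0.05, edgeR adjusted p = 1.54e-13). The partners of GLDC in glycine cleavage did not move together. AMT rose from 1.60 ± 0.273 to 9.68 ± 1.09 CPM (2.58 ± 0.16, edgeR adjusted p = 2.33e-08) and stood at 6.15 ± 0.103 in the rescue. GCSH and DLD, named after their values were seen, had log2 fold changes of -0.97 ± 0.13 and -0.69 ± 0.05 (edgeR adjusted p = 3.76e-05 and 5.54e-08).

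All 6 tested genes of de novo purine synthesis, which takes carbon from formyl-folate, fell in the knockdown, with values from -1.26 to -0.52 and a median of -0.77. PAICS went from 460 ± 23.5 to 191 ± 5.38 and back to 429 ± 2.33 CPM (-1.26 ± 0.05, edgeR adjusted p = 2.98e-10), and PFAS fell by 1.09 ± 0.08 (edgeR adjusted p = 1.66e-07). In the rescue against the knockdown all 6 were called higher, against 33.9% of all tested genes. Against the control the rescue was called lower for 4, against 19.1%, and the 2 not called also had negative log2 differences. Of 10 tested genes of the methionine cycle and transsulfuration, 5 fell and 2 rose (median -0.09), not far from the shares over all genes. Under the alternatives 3 to 6 of them fell and 1 to 3 rose, the 3 falls being found with the disputed library counted as PHF19_KD. CBS, which joins serine to homocysteine, fell from 4.78 ± 0.714 to 1.36 ± 0.536 CPM (-1.81 ± 0.30, edgeR adjusted p = 2.88e-04), a call lost at -0.80 when the disputed library counted as a knockdown. MAT2A, which makes S-adenosylmethionine, fell by 0.49 ± 0.04 (edgeR adjusted p = 3.21e-07). AHCYL1 rose by 0.36 ± 0.05 (edgeR adjusted p = 5.52e-05) and MTR, which remethylates homocysteine, by 0.14 ± 0.05 (edgeR adjusted p = 0.0205), a call that 10 of 19 alternatives lost, among them leaving out shEV replicate 1, PHF19_KD replicate 1 or 3, or either KD_Rescued library.

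The 18 tested genes for transport and use of serine and glycine had a median of -0.40, with 11 falls and 5 rises against the same background of 34.2% and 34.9%. SLC6A9, a glycine transporter, went from 22.4 ± 2.07 to 3.55 ± 0.0992 and back to 25.1 ± 0.234 CPM (-2.66 ± 0.11, edgeR adjusted p = 8.81e-10). SLC1A4, a neutral amino acid transporter that carries serine, went from 562 ± 18.8 to 172 ± 3.38 and back to 536 ± 9.68 CPM (-1.70 ± 0.04, edgeR adjusted p = 1.11e-11). In the other direction, SFXN3, of the sideroflexin family of mitochondrial serine carriers, rose from 1.40 to 8.56 CPM (2.61 ± 0.20, edgeR adjusted p = 1.93e-07). The family did not move together. SFXN1, named after its values were seen, fell from 162 to 62.7 CPM (-1.37 ± 0.04, edgeR adjusted p = 1.17e-10) and stood at 130 in the rescue. SDSL, related to serine dehydratase, rose by 1.96 ± 0.13 (edgeR adjusted p = 6.73e-08). Among 14 amino acid stress genes the median was -0.55, and 10 fell while 3 rose. SLC7A11, the cystine transporter, and SLC7A5, a large neutral amino acid transporter, had log2 fold changes of -2.83 ± 0.13 and -1.94 ± 0.08 (edgeR adjusted p = 2.50e-09 and 3.33e-09). DDIT3, a stress transcription factor, rose by 0.97 ± 0.12 and DDIT4, an inhibitor of mTORC1 signalling, by 0.97 ± 0.08 (edgeR adjusted p = 2.00e-05 and 2.94e-07).

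Proliferation genes moved with the enzyme genes. All 17 on the list, among them MCM4 and RRM2 of DNA replication, were called lower in the knockdown, against 34.2% of all tested genes. All 17 were called higher in the rescue against the knockdown, against 33.9%. Their medians were -3.08 and 2.93, against 0.03 over all tested genes in each comparison. Their summed level was 5748 to 5879 CPM in shEV, 633 to 647 in PHF19_KD and 4965 to 5012 in KD_Rescued. At 1892 CPM the disputed library lay between knockdown and rescue, as it did for 9 of the 10 enzyme genes. The part of proliferation in the change of the enzyme genes was not tested.

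**Figure D4:**
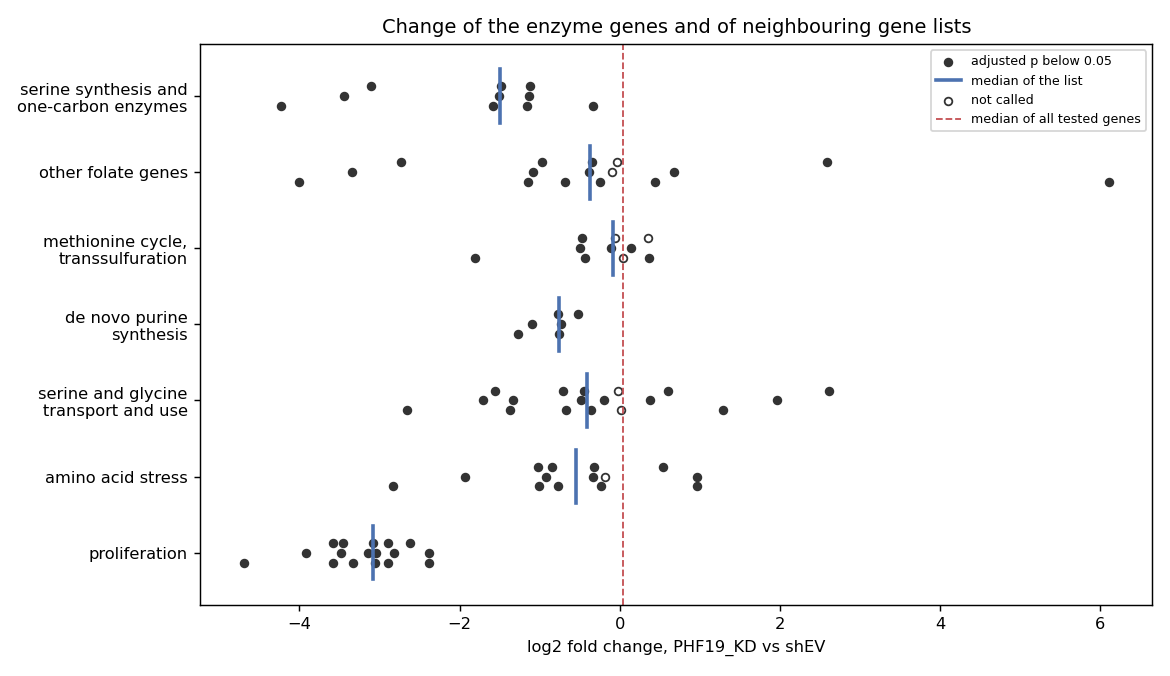
Log2 fold change of PHF19_KD against shEV (horizontal axis) for the 10 enzyme genes and 6 other gene lists (rows), with 1 point per tested gene, filled where the adjusted p was below 0.05. The bar is the list's median, from -1.49 for the enzyme genes and -3.08 for proliferation to -0.09 for the methionine cycle, and the rightmost point is ALDH1L1, whose fitted value rests on a control count of 1.

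Of 8 regulators known or proposed to act on these genes, 3 fell in the knockdown, 2 rose and 3 did not pass, against 34.2% and 34.9% of all tested genes lower and higher. Under the alternatives 1 to 4 regulators rose. ATF4 was among the falls. It stood at 357 ± 6.73 CPM in shEV, 198 ± 2.18 in PHF19_KD and 489 ± 5.27 in KD_Rescued, with -0.85 ± 0.04 in the knockdown (edgeR adjusted p = 1.68e-09) and 1.30 ± 0.04 from knockdown to rescue (edgeR adjusted p = 1.17e-10). The rescue exceeded the control by 0.45 ± 0.04 (edgeR adjusted p = 7.77e-06), a call lost at 0.19 when the disputed library counted as KD_Rescued. ATF4 is regulated largely in translation, which RNA-seq does not measure. MYC had 604 ± 31.1, 630 ± 3.80 and 455 ± 2.27 CPM. Its knockdown difference of 0.06 ± 0.04 did not pass (edgeR adjusted p = 0.233) but was called higher with upper-quartile scaling, at 0.22, and with a filter at 5 CPM, at 0.16. From knockdown to rescue MYC fell by 0.47 ± 0.05.

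TP73, a transcription factor, fell from 15.9 to 1.24 CPM (-3.70 ± 0.22, edgeR adjusted p = 3.78e-08) and stood at 15.2 in the rescue. KDM4C, a histone lysine demethylase, rose by 0.64 ± 0.06 (edgeR adjusted p = 9.96e-07) and MAX, the partner of MYC, by 0.25 ± 0.06 (edgeR adjusted p = 0.00208), a call lost at 0.15 with no filter on low counts. NFE2L2 had 0.10 ± 0.06 and EHMT2 -0.12 ± 0.08, and neither passed (edgeR adjusted p = 0.138 and 0.176). Without shEV replicate 3, EHMT2 was called lower, at -0.21, and NFE2L2 higher, at 0.14. A filter at 5 CPM (0.19) or upper-quartile scaling (0.25) also had NFE2L2 called higher, and EHMT2 lower with no filter (-0.21).

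Genes outside the set were ranked by how closely their profile over the 8 libraries followed an enzyme gene, by the root mean square difference of centred log2 CPM among 12576 tested genes with a mean log2 CPM of at least 1. Nearest to PHGDH were MCM10 (0.176), MCM4 (0.197), BLM (0.200), FANCI (0.202) and CDC25A (0.204), and 17 genes lay within 0.25. Nearest to SHMT2, the enzyme gene with the highest control level, were SNRPB (0.037), ACTG1 (0.038), EIF4A3 (0.055), USP13 (0.057) and SLC7A1 (0.062), with 610 genes within 0.25. Nearest to GLDC, the enzyme gene that fell least, were BRD8 (0.026), UBE4A (0.033), HIPK1 (0.034), TATDN2 (0.037) and ITGA8 (0.037), with 4445 within 0.25. These counts depend on how far the reference gene itself moved, since a gene that changes little lies near any other that changes little, and they are not compared with each other. The libraries behind these distances share their group structure, so they are given as a description.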

How the data were processed

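Each RNA-seq library took 1 µg of total RNA (Illumina TruSeq kit), per the labels' protocols. The values deposited by the authors are estimated counts, unscaled between libraries, in which 15.6% to 19.4% of a library's values were not whole (tolerance 0.01). The submitters' processing notes name CASAVA, RSEM and hg19 without versions, and the table's name refers to salmon, so the program is not settled. Estimated counts were rounded and tested with edgeR 4.0.16 (R 4.3.3): filterByExpr, TMM scaling, a robust quasi-likelihood fit of all 8 undisputed libraries with group means, and Benjamini-Hochberg adjustment at 0.05. CPM are scaled by total and TMM factor. The SE is the log2 fold change over the square root of F. The precision of a level is limited by the number of libraries.

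The enzyme genes, lists and tests were chosen with earlier results of these data known. Named genes were PHF19, the 10 enzyme genes, all regulators, up to 2 called risers and 2 called fallers per other list by size of change (mean log2 CPM at least 1), and 5 genes nearest to each of 3 enzyme genes, and the text gives most of them; a few are not reported here. Reads shared with copies could be divided: PHGDH was whole in 9 of 9 libraries, and PSPH, MTHFD1, MTHFD2 and GLDC in 0. Over genes with whole counts, replicate pairs differed by 1.37 to 9.15 in chi-square per degree of freedom, beyond counting noise. A simulation of PHF19_KD against shEV held 15996 genes, with 50 genes changed by each amount tried. The amounts were 1.25, 1.5, 2 and 4 times, and the recovered shares 32%, 64%, 78% and 94%, in that order. Of its 139 calls, 3.60% were unchanged genes. Changes smaller than 1.25 times were not simulated. Far more genes, 69.1%, were called in the real comparison, so these shares need not carry over to it. Alternatives were other scalings, filters and tests (DESeq2 1.42.0, limma 3.58.1), a replicate block, left-out libraries and other placements of the disputed library.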

Additional observations from a re-analysis of the deposited data

How the results depend on the processing

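Over 19 alternatives the 10 enzyme genes kept their direction in PHF19_KD against shEV and in KD_Rescued against PHF19_KD. Of 570 values of the enzyme genes in 3 comparisons 22 lost their call, 0 gained one and 0 called values reversed. Apart from 1 of PSAT1 in the rescue against the knockdown, the lost calls all lay in the rescue against shEV. There PSPH lost 10, GLDC 4, SHMT2 4, and MTHFD2, PHGDH and PSAT1 1 each, while MTHFD1, MTHFD1L and ALDH1L2 had no call to lose. The alternatives reuse the same libraries. Placing the disputed library in a group gave 6207 genes called for the rescue against the knockdown (as KD_Rescued), and 4047 (as PHF19_KD) or 2464 (as KD_Rescued) for the rescue against shEV. GLDC was then not called above shEV, leaving 0 enzyme genes higher under either placement, as it did with no filter (0), and 1 was called lower (as PHF19_KD). Without each replicate in turn, genes called ran from 10729 to 11754, from 9013 to 11322 and from 4048 to 7539 in the 3 comparisons. Enzyme genes called ran from 10 to 10 in the first 2 and, against shEV, from 4 to 6 lower and from 0 to 1 higher. DDIT4 in the rescue against shEV turned from -0.33 to 0.021 with the disputed library as KD_Rescued. The cause was not tested.

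Same-numbered libraries correlated between -0.02 and 0.06 in their deviations from group means, and differently numbered ones between -0.07 and 0.02. The deviations of the 2 KD_Rescued libraries mirror each other, so pairs with them tell little. The numbers were not taken to pair the samples. With the replicate block 11537, 10341 and 6387 genes were called, with 10 enzyme genes lower, 10 higher and, against shEV, 5 lower and 1 higher, the PSPH call (-0.20) being lost.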
